A study of Mus musculus with 21 samples.

Results

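Small nucleolar RNAs are short noncoding RNAs that act inside protein complexes in the nucleolus. Box C/D RNAs (gene symbols beginning Snord) pair with target RNA and direct ribose methylation by fibrillarin, box H/ACA RNAs (Snora) direct pseudouridine formation by dyskerin, and Cajal body RNAs (Scarna) guide the modification of spliceosomal RNAs. A few members, among them U3, U8, U14, U17 and U22, are needed for the cuts that release mature ribosomal RNA. In mammals most are not transcribed on their own but are trimmed out of introns of host genes, many of which encode ribosomal proteins and translation factors or are noncoding RNAs of the Snhg family.

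The genes described here are all those whose symbol begins with Snord, Snora or Scarna and that have a probeset with exactly 1 gene symbol on the array. There were 54 such genes of 19938 on the array: 31 box C/D, 20 H/ACA and 3 Cajal body RNAs. They were read by 60 probesets, and for the 6 genes with several the one with the highest mean was used, 3 of these genes (Scarna17, Snora30 and Snord118) having probesets of identical values. Another 41 probesets name a small nucleolar RNA together with another gene, 24 of them for Snord116 repeats, and were not used here. Of the 54 genes, 50 passed the filter on dim genes (27 box C/D, 20 H/ACA and 3 Cajal body RNAs), and Snord38a, Snord58b, Snord61 and Snord73a did not.

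Muscle stem cells were sorted by YFP from hindlimb muscle of mice aged 3 to 5 months. Every group, controls included, carried Pax7CreER and the Rosa26 YFP tracer and had been given tamoxifen at least 2 weeks earlier, so that recombination was driven in Pax7-expressing cells. QSC are cells of noninjured mice, and CSC are cells of the muscle contralateral to one injured with BaCl2, taken 2.5 or 28 days after injury. The wild type (WT, Pax7CreER/+;Rosa26REYFP/+) gave 3 pools of QSC, 3 pools of CSC at 2.5 days and 1 pool of CSC at 28 days. Single pools came from TSC1flox/flox mice (TSC1 KO, QSC), from Rptrflox/flox mice (Rptor KO, QSC and CSC) and from cMetflox/flox mice (cMet KO, QSC and CSC), each with the same Pax7CreER and tracer alleles. The strain was mixed C57BL6, and C57BL6 mixed with FVB for the cMet KO pools. Tsc1 encodes an inhibitor and Rptor (Raptor) a subunit of the growth-promoting kinase complex mTORC1, and Met encodes the receptor for hepatocyte growth factor. A pool held cells of 3 to 4 mice, the 12 pools were measured on 21 arrays, and 9 pools had 2 arrays each. Where a group is 1 pool, its genotype or time and that pool cannot be told apart.

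Array medians ran from 7.03 to 7.21 on the log2 scale. Satellite cell markers were high in every pool, with list medians from 10.92 to 12.10 log2, and Pax7 itself lay at percentile 97.0 of all genes. The signals of the targeted genes checked the labels only in part. Tsc1 was 8.16 in TSC1 KO QSC against 8.34 to 8.69 in WT QSC, a difference of -0.40 ± 0.24 (SE, limma adjusted p = 0.641). Rptor was 9.19 in Rptor KO QSC, within the WT QSC range of 8.91 to 9.58. In Rptor KO CSC it was 8.85, below the 9.43 to 9.84 of WT CSC at 2.5 days. Met was 10.25 in cMet KO QSC against 9.93 to 10.11 in WT QSC. In cMet KO CSC it was 10.13, below the 10.63 to 10.94 of WT CSC at 2.5 days. Which exons were deleted and which of them the probes cover is not given in the sources used here, so the knockout names below are those of the labels.

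The sequences of the small nucleolar RNAs themselves were not used here. What can be shown are the starts of the genes that hold them, because an RNA cut from an intron is transcribed with its host. In the RefSeq gene table (GRCm38.p6), 53 of the 54 members lie within the bounds of another gene, the exception being Snord118. There were 46 such holding genes. Ribosomal protein genes numbered 16 and held 21 members, and Snhg genes or Gas5 held 9. The table gives no strand, so lying within a gene is all that was established. Below are the starts of 6 holding genes, chosen from those that hold members named in the results that follow. Each line runs 5′ to 3′ on the gene's strand, from 60 bases before the annotated start to base 20 of the transcript (RefSeq, GRCm38.p6), and capitals mark the unbroken run of C and T from the first transcribed base.
Rpl27a (holds Snora3; chr7:109519135-109519214, plus strand): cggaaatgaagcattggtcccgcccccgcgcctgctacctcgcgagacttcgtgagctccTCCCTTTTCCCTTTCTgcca
Snhg12 (Snora16a, Snora44; chr4:132308618-132308697, plus strand): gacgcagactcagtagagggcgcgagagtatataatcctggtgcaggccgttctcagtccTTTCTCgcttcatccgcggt
Snhg3 (Snora73a, Snora73b; chr4:132353667-132353746, minus strand): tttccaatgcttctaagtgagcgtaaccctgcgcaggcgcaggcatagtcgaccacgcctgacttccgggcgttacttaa
Gm36220 (Snord104; chr11:106500855-106500934, plus strand): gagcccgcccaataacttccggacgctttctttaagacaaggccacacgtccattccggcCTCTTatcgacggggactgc
Gas5 (Snord47; chr1:161035106-161035185, plus strand): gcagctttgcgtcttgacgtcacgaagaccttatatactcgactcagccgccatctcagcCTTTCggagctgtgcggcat
Ipo7 (Snora23; chr7:110018255-110018334, plus strand): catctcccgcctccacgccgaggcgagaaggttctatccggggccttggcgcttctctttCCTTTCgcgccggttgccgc

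The 5′ TOP element, which has a pyrimidine run at the first transcribed base, ties translation of RNA to mTORC1. It is a known feature of ribosomal protein genes and of several small nucleolar RNA host genes. A run of at least 5 pyrimidines stood at a start of 8 of the 33 holding genes in the promoter table (24.2%), against 5.28% of the 27025 genes in it. The 8 were 1110038B12Rik, Gas5, Gm36220, Ipo7, Rack1, Rpl27a, Rplp2 and Snhg12. Of the ribosomal protein genes among the 33, only Rpl27a and Rplp2 had such a run. Any run of C and T was counted, also those of Rpl27a and Snhg12 that begin with T, so a counted run was not shown to be a TOP element. The run was 16 bases long in Rpl27a and 6 in Snhg12, and the printed start of Snhg3 begins with a purine and has none. All other printed starts have a run of at least 5, so they do not stand for the 33. Tpt1, Wdr43 and Haus6, which hold Snora31, Snord53 and Scarna8 and are not printed, had runs of 0, 0 and 2. Hspa8, which holds Snord14e, was not among the 33. Annotated starts can be off by a few bases, so a missing run says only that these letters are not at that position.

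All values below are log2 signals after RMA, the authors' normalization, with the arrays of a pool averaged. A difference of 1 is a change of 2-fold. A probe in a small nucleolar RNA also matches the unspliced intron that holds it, so mature RNA and host precursor cannot be told apart on the array. The strongest probeset signals, averaged over 12 pools, were those of Snord104 (13.19), Snora52 (12.58), Snora73a (12.27), Snord57 (12.21) and Scarna17 (12.08). The weakest among those tested were Snora41 (6.58), Snora2b (6.62), Scarna8 (6.84), Snord118 (7.03) and Snord37 (7.28). Signals of different probesets depend on their probes, so this is no order of abundance.

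Large differences among members lay between pools of the same group. Snora3, an H/ACA RNA within Rpl27a, was 10.18, 12.90 and 12.71 in the 3 WT QSC pools. In the 3 WT CSC pools at 2.5 days it was 10.66, 12.57 and 12.68. The single pools gave 12.45 at 28 days, 10.46 in TSC1 KO QSC, 11.64 and 11.49 in QSC and CSC of the Rptor KO, and 12.23 and 12.29 in those of the cMet KO. The signal was therefore low in 3 pools (WT QSC pool 1, WT CSC pool 1 at 2.5 days and TSC1 KO QSC), between 10.18 and 10.66, and lay between 11.49 and 12.90 in the other 9. Both arrays of each low pool gave it: 10.09 and 10.27 for WT QSC pool 1, 10.70 and 10.62 for WT CSC pool 1, and 10.35 and 10.57 for TSC1 KO QSC. Its holding gene, which encodes a protein of the large ribosomal subunit, did not share this: Rpl27a stayed between 12.01 and 12.40 in all 12 pools.

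Snora16a and Snora44, both within Snhg12, were also low in these pools. Snora44 was 10.55, 12.05 and 12.34 in WT QSC, 10.92, 12.23 and 12.20 in WT CSC at 2.5 days and 10.50 in TSC1 KO QSC. It ran from 11.59 to 12.55 in the other 5 pools. Snora16a was 10.27, 12.46 and 12.24 in WT QSC, 11.01, 11.85 and 11.85 in WT CSC and 10.67 in TSC1 KO QSC, and the next lowest pool was Rptor KO CSC at 11.19. Snora31, within Tpt1, the gene of a translationally controlled protein, was 8.65, 10.02 and 10.33 in WT QSC, 8.61, 9.78 and 9.61 in WT CSC and 8.66 in TSC1 KO QSC. Tpt1 itself ranged over 0.27 in the 12 pools, against 1.72 for Snora31.

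For another set of members the low pools were WT QSC pool 1 and TSC1 KO QSC, with WT CSC pool 1 nearer to the rest. Snora73a and Snora73b are the U17 RNAs, which take part in processing of 18S ribosomal RNA, and both lie within Snhg3. Snora73b was 10.47, 12.29 and 12.57 in WT QSC, 11.81, 12.69 and 12.50 in WT CSC at 2.5 days, 11.94 at 28 days, 10.81 in TSC1 KO QSC, 12.43 and 12.02 in the Rptor KO pools and 12.18 and 12.13 in the cMet KO pools. Snora73a showed the same order of its lowest pools, at 11.04 in WT QSC pool 1 and 11.39 in TSC1 KO QSC, the next being 12.07 in WT CSC pool 1. Among box C/D RNAs, Snord104 was 11.94 in WT QSC pool 1 and 12.02 in TSC1 KO QSC and at least 13.02 in every other pool. Snord35b was 8.56 and 8.65 there and 9.40 to 10.95 elsewhere. Snord53, within Wdr43, was 8.26 and 8.32 there and 9.37 to 10.46 elsewhere, and the Cajal body RNA Scarna8 was 5.57 and 5.72 there and 6.64 to 7.83 elsewhere. The U3 gene Rnu3a, which has no Snord symbol and is no member, was 8.57 and 8.67 in these pools and 9.88 to 10.98 in the other 10.

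**Figure D1:**
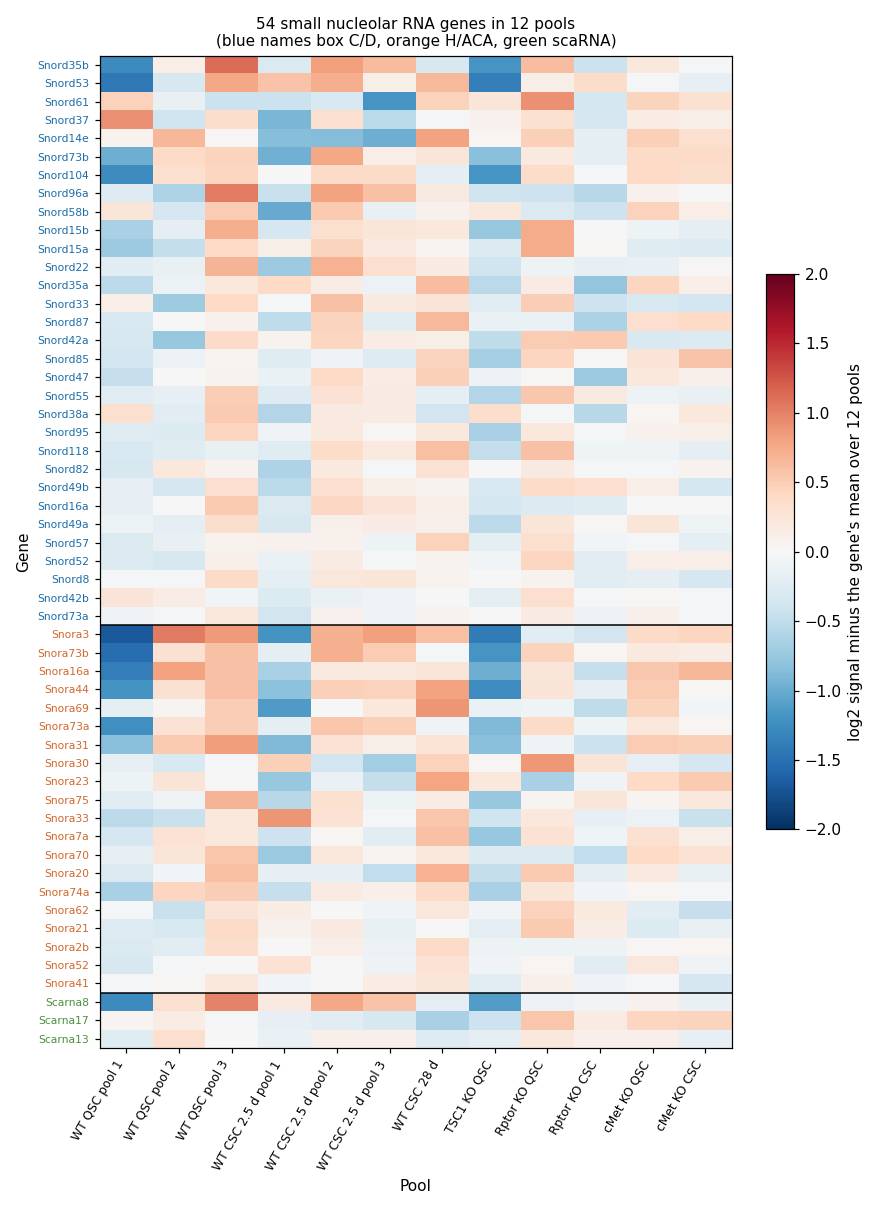
Log2 signal of the 54 genes (rows, grouped into box C/D, H/ACA and Cajal body RNAs and ordered by range) in 12 pools (columns), each minus the gene's own mean over the pools, in red where higher and blue where lower. WT QSC pool 1, WT CSC 2.5 d pool 1 and TSC1 KO QSC are blue for most genes at the top of the H/ACA class, Snora3 among them (10.18, 10.66 and 10.46 against 11.49 to 12.90 elsewhere). The top box C/D genes differ. Snord35b is blue in all of these pools, while Snord37 is red in WT QSC pool 1 (8.20 against a mean of 7.28).

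Counted over all 54 members, WT QSC pool 1 was the lowest of the 12 pools for 15, while it was the lowest for 2.54% of all genes tested. It was among the lowest 3 pools for 36 of the 54 members, against 13.4% of all genes tested. WT CSC pool 1 was among them for 31 of the 54, a larger share than the 30.9% of all genes tested. TSC1 KO QSC was among them for 31 of the 54, a larger share than the 23.8% of all genes tested. WT QSC pool 3 was the highest for 15 of the 54 members (against 5.88% of all genes tested). The 28-day pool was the highest for 14 (against 6.44% of genes) and Rptor KO QSC for 11 (against 12.6% of genes). The median deviation of members from their own mean was -0.28 in WT QSC pool 1, -0.05 in pool 2 and 0.38 in pool 3. It was -0.27, 0.22 and 0.11 in the WT CSC pools at 2.5 days, 0.22 at 28 days and -0.38 in TSC1 KO QSC. In QSC and CSC of the Rptor KO it was 0.23 and -0.10, and in those of the cMet KO 0.12 and 0.01. Over all genes tested this median stayed between -0.08 and 0.07, and over 26 holding genes on the array between -0.15 and 0.10. Endothelial marker medians in the 3 pools low for Snora3 (WT QSC pool 1, WT CSC pool 1 and TSC1 KO QSC) were 9.44, 7.70 and 9.08, and satellite cell medians 12.08, 10.92 and 12.10. WT QSC pool 1 and TSC1 KO QSC had the highest satellite cell medians of the 12 (the next was 11.95). They also had the highest Pax7 signals, 12.10 and 12.09, the next being 11.71. The part of these markers in the low signals was not tested. RNA was taken by Trizol and then cleaned on a Qiagen column, per the labels, and the part of recovery of short RNA in these pool differences was not tested.

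Not every member had a wide range. Snora52, within Rplp2, ranged over 0.63 in the 12 pools, Scarna13 over 0.60, Snord42b over 0.61 and Snora41 over 0.57. Snora52 was still lowest in WT QSC pool 1 (12.25) and Snord42b in WT CSC pool 1 (9.66). Scarna13 was lowest in the 28-day pool (11.45) and Snora41 in cMet KO CSC (6.24). Of the 50 tested members, 36 (72.0%) ranged over more than 1, against 35.1% of all genes tested. The median SD among the 3 WT QSC pools was 0.375 for members and 0.207 for all genes tested, and among the WT CSC pools at 2.5 days 0.312 and 0.131. In the WT QSC pools the median SD was 0.367 for box C/D and 0.392 for H/ACA, and 0.294 for the Cajal body RNAs.

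**Figure D2:**
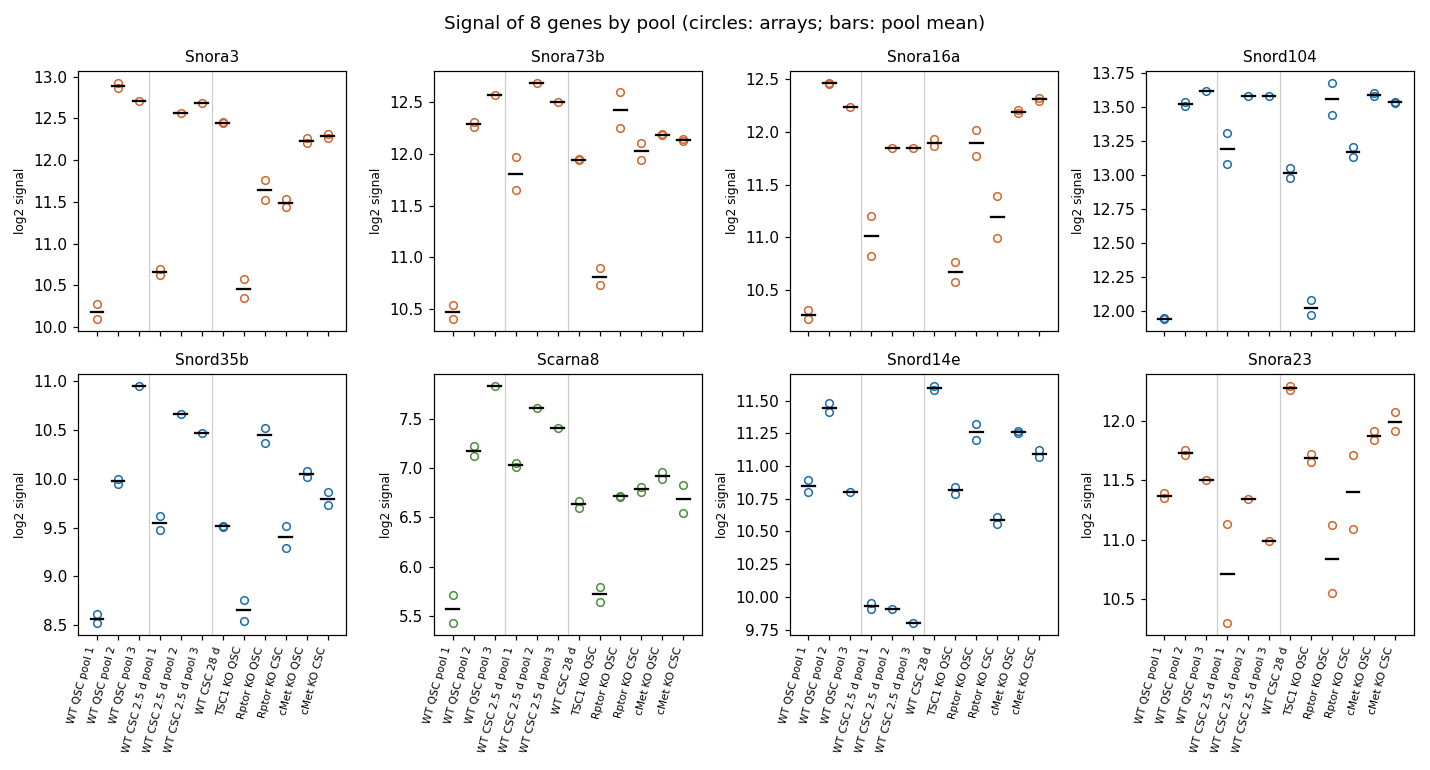
Log2 signal of 8 genes in each pool, with a circle for each array and a bar for the pool mean; the vertical lines set apart WT QSC, WT CSC at 2.5 days and the single pools. Both arrays of WT QSC pool 1 and TSC1 KO QSC lie low for Snora3, Snora73b, Snora16a, Snord104, Snord35b and Scarna8, while Snord14e is low in the 3 WT CSC pools at 2.5 days (9.80 to 9.93).

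Against this spread, WT CSC at 2.5 days were compared with WT QSC to ask how stem cells distant from an injury differ from cells of noninjured mice. Of the 50 members tested, 1 fell and none rose, while 18.0% of all 13956 genes tested passed the same threshold. Members had wider median SDs than all genes tested (0.375 against 0.207 in WT QSC, 0.312 against 0.131 in WT CSC). A change of the same size passes less often at a wider spread, and the part of this in the low count was not tested. The member that fell was Snord14e, a copy of U14, which is needed for processing of 18S ribosomal RNA and lies within Hspa8, the gene of the constitutive heat shock protein Hsc70. Snord14e was 10.85, 11.44 and 10.80 in WT QSC and 9.93, 9.91 and 9.80 in WT CSC, and the groups did not overlap. The difference was -1.15 ± 0.18 (SE, 3 against 3 pools; limma adjusted p = 0.00361), a signal 2.22-fold lower. Hspa8 was 13.64, 13.78 and 13.57 in WT QSC and 13.39, 13.49 and 13.52 in WT CSC, a difference of -0.20 that did not pass (adjusted p = 0.318). Near-identical U14 copies lie in other introns of Hspa8, and whether the probes also read them was not tested. In a bulk pool, fewer cells of a type and less RNA per cell cannot be told apart.

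In the other 6 pools Snord14e was 11.59 in WT CSC at 28 days, 10.82 in TSC1 KO QSC, 11.26 and 10.59 in QSC and CSC of the Rptor KO, and 11.26 and 11.10 in those of the cMet KO. All 6 lay above the 3 WT CSC pools at 2.5 days. Snord14e did not follow the pools low for Snora3: its value in WT CSC pool 1, 9.93, was the highest of that group. With WT QSC pool 1, WT CSC pool 1 and TSC1 KO QSC all left out, it was still the one member called, at -1.27 (adjusted p = 0.0275). Cell type markers fell in the same comparison, with 4 of 10 satellite cell, 7 of 8 endothelial, 2 of 5 pericyte and 4 of 5 fibro-adipogenic genes lower. Of 6 macrophage genes none passed, of 6 mature fibre genes 1 rose, and of all 13956 genes tested 1027 fell. Satellite cell list medians were 11.33 to 12.08 in WT QSC and 10.92 to 11.13 in WT CSC, and endothelial ones 9.33 to 9.59 and 7.70 to 8.24. The part of these markers in the fall of Snord14e was not tested.

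Next by p came Snora23, Scarna17 and Snora33, none past the threshold. Snora23, an H/ACA RNA within Ipo7, the gene of a nuclear import factor, was 11.37, 11.73 and 11.50 in WT QSC and 10.71, 11.34 and 10.99 in WT CSC, a difference of -0.52 ± 0.18 (limma adjusted p = 0.0811, and 0.0318 with the replicate number as a block). Its groups did not overlap, and Ipo7 differed by 0.11. Scarna17 was 12.14, 12.22 and 12.06 against 11.91, 11.86 and 11.76, a difference of -0.30 ± 0.12 (adjusted p = 0.128). Snora33, within the ribosomal protein gene Rps12, was 8.06, 8.13 and 8.79 against 9.47, 8.87 and 8.54, overlapping groups with a difference of 0.64 ± 0.27 (adjusted p = 0.135). Pools of the groups did not overlap for 4 members (Scarna17, Snora23, Snord14e and Snord42b, all lower in CSC), against 37.9% of all genes tested.

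The other members with a role in ribosomal RNA cuts did not pass either. U8 (Snord118), which acts in processing of the large subunit RNA, differed by 0.34 ± 0.17, U22 (Snord22) by 0.00 ± 0.36, and the U17 RNAs Snora73a and Snora73b by 0.42 ± 0.41 and 0.55 ± 0.49. Snord33 and Snord35a, the Rpl13a RNAs known from the response to lipid stress, differed by 0.32 ± 0.28 and 0.28 ± 0.21, and Snord47 of Gas5 by 0.27 ± 0.19. For Snora3 the difference was 0.04 ± 0.74, an error that reflects the low pool in each group. Medians were 0.03 for box C/D (31 genes, from -1.15 to 0.79), -0.03 for H/ACA (20 genes, from -0.52 to 0.64) and -0.05 for all genes tested. Without WT QSC pool 1 the H/ACA median was -0.42, so that value rests on 1 pool. Of the 54 members, 28 had a higher mean in CSC, against 38.7% of all genes before the filter and 43.2% of those tested. An unadjusted p under 0.05 was found for 4 of the 50 tested (32.0% of all genes tested).

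**Figure D3:**
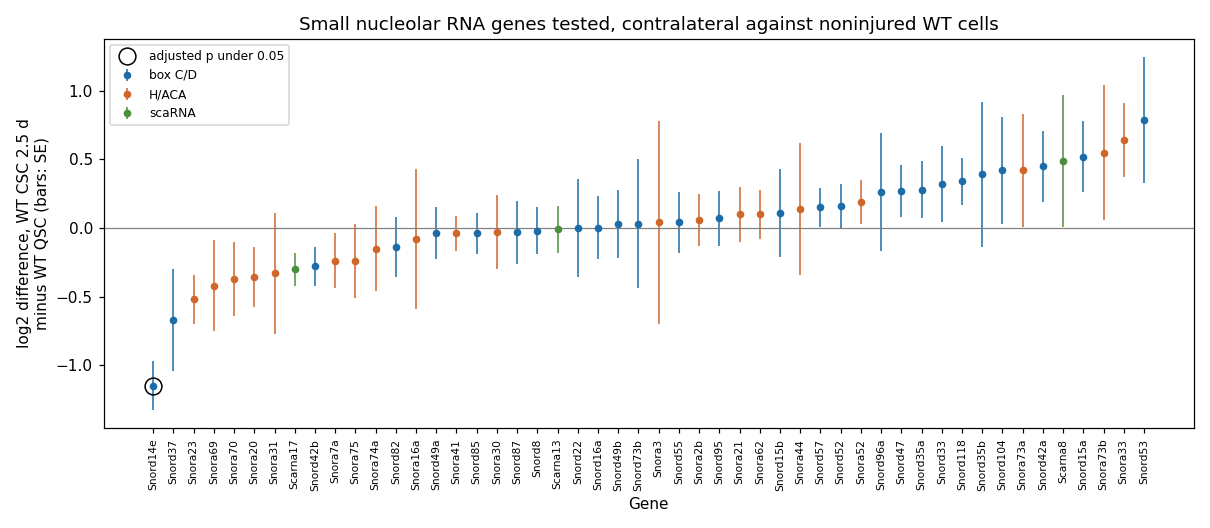
Difference in log2 signal, WT CSC at 2.5 days minus WT QSC (points; bars, SE), for the 50 genes tested, ordered by size and coloured by class. Snord14e, ringed, is the one gene past an adjusted p of 0.05 (-1.15), and the differences of the other 49 lie between -0.67 and 0.79.

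The mRNAs of the particle proteins gave a different count from the small nucleolar RNAs in this comparison. Signals given under protein names are those of mRNA, and no protein was measured. Of 4 core H/ACA proteins, 3 rose: the pseudouridine synthase Dkc1 by 0.93 ± 0.16 (limma adjusted p = 0.00555), Nhp2 by 0.98 ± 0.23 (0.0189) and Nop10 by 0.62 ± 0.16 (0.0269), and Gar1 differed by 0.66 ± 0.26 (0.114). Dkc1 was 9.01, 8.47 and 8.83 in WT QSC and 9.58, 9.78 and 9.75 in WT CSC, and Nop10 was 9.53, 10.01 and 9.71 against 10.29, 10.30 and 10.52, so neither overlapped. Of 4 core box C/D proteins on the array none passed. The methyltransferase Fbl differed by 0.23 ± 0.14, Nop56 by 0.35 ± 0.16, Snu13 by 0.16 ± 0.13 and Nop58 by -0.48 ± 0.21. Of 22 assembly and maturation factors, 7 rose and none fell, against 18.0% of all genes called. They were the helicases Ruvbl1 (0.94 ± 0.21) and Ruvbl2 (1.23 ± 0.21), Rpap3 (0.74 ± 0.16), Znhit6 (0.74 ± 0.13), the Cajal body targeting factor Wrap53 (0.63 ± 0.16), and the exosome cofactors C1d (0.50 ± 0.14) and Mphosph6 (0.90 ± 0.13). Ruvbl2 was 8.44, 7.61 and 8.37 in WT QSC and 9.29, 9.46 and 9.36 in WT CSC. Of 18 noncoding hosts listed, 6 were on the array, and Snhg16 fell (-0.59 ± 0.16, adjusted p = 0.0362) while Gas5 differed by -0.03 ± 0.13. These lists share pools with the member counts, and the difference between these mRNAs and the small nucleolar RNAs was not itself tested.

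At 28 days after injury, the WT CSC pool was set against WT QSC. No member passed (6 had an unadjusted p under 0.05), and neither did any of all genes tested (0.0%, limma; 637, or 4.56%, had an unadjusted p under 0.05). Differences nevertheless lay on one side by class. All 20 H/ACA RNAs had a higher signal in the 28-day pool than the WT QSC mean, with differences from 0.00 to 0.91 and a median of 0.36, as did 23 of 31 box C/D RNAs (median 0.24). None of the 3 Cajal body RNAs did (-0.71, -0.29 and -0.22). In all, 43 of 54 members lay above 0, against 47.7% of all genes, whose median was -0.01. Without WT QSC pool 1 the H/ACA median was 0.22. Set against each WT QSC pool rather than their mean, the 28-day pool lay above all 3 for 18 of the 50 members (36.0%), against 19.8% of all genes, and 10 of these were H/ACA RNAs. It lay below all 3 for 2 members, both Cajal body RNAs (Scarna13 and Scarna17), against 19.0% of all genes.

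The members with the smallest p at 28 days were Scarna17, Snord118, Snord57 and Snora23. Scarna17 was 11.43 in the 28-day pool, the lowest of the 12 pools, against 12.06 to 12.22 in WT QSC (-0.71 ± 0.17, limma adjusted p = 0.632). U8 (Snord118) was 7.64, the highest of the 12, against 6.73 to 6.88 (0.84 ± 0.24, adjusted p = 0.834). Snord57, within the box C/D protein gene Nop56, was 12.66 against 11.91 to 12.27 (0.58 ± 0.20, adjusted p = 0.952), and Snora23 was 12.27 against 11.37 to 11.73 (0.74 ± 0.26, 0.967). All 4 lay outside the WT QSC range, but a single pool gives no spread of its own.

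Against WT CSC at 2.5 days, 2 members were higher in the 28-day pool, where 8.38% of all genes passed. Of the 54 members, 39 had a higher value at 28 days (57.4% of all genes), and 8 had an unadjusted p under 0.05 (24.2%). Snord14e was higher by 1.72 ± 0.26 (11.59 against 9.80 to 9.93; limma adjusted p = 0.00585). Snora23 was higher by 1.26 ± 0.26 (12.27 against 10.71 to 11.34; adjusted p = 0.0203), and this call was lost without WT CSC pool 3 (adjusted p = 0.067). Hspa8 and Ipo7 differed by 0.28 and 0.17 and did not pass. The 28-day value of Snord14e lay above each WT QSC pool, as did that of Snora23. Of the mRNAs of particle proteins and assembly factors, Nhp2 (-1.31 ± 0.32), Ruvbl2 (-1.24 ± 0.30) and Wrap53 (-0.94 ± 0.23) were lower at 28 days than at 2.5 days.

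TSC1 KO QSC was the lowest of the 12 pools for 10 of the 54 members, a larger share than the 9.97% of all genes tested. The comparisons of TSC1, Rptor and cMet KO QSC share the 3 WT QSC pools, so their differences are not independent of each other. Against WT QSC, 44 of 54 members were lower in TSC1 KO QSC, with a median of -0.24 for box C/D and -0.52 for H/ACA. Over all genes tested the median was 0.04 and 56.3% lay above 0, and before the filter 47.6% did. None of the members passed, where 0.0143% of all genes did, and 4 had an unadjusted p under 0.05 (8.82% of all genes). The smallest p values were those of Snora7a, within Rpl32 (10.54 against 10.94, 11.58 and 11.51; -0.80 ± 0.28, limma adjusted p = 0.479), Scarna17 (11.66 against 12.06 to 12.22; -0.48 ± 0.17, 0.49), Snord85 (7.26 against 7.54 to 7.97; -0.51 ± 0.21, 0.55) and Snora75, within the nucleolin gene Ncl (8.91 against 9.44 to 10.35; -0.88 ± 0.39, 0.566). All 4 lay below every WT QSC pool. Such a position held for 17 of the 50 tested members (34.0%) and for 23.2% of all genes. Snora30 was the 1 member above all WT QSC pools, a position held by 30.3% of all genes.

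The members with the largest differences in TSC1 KO QSC were those also low in WT QSC pool 1. Snora3 differed by -1.47 ± 1.04, Snord35b by -1.18 ± 0.75 and Snora44 by -1.15 ± 0.68. Scarna8 differed by -1.13 ± 0.67, Snord53 by -1.05 ± 0.64 and Snord104 by -1.01 ± 0.55. Without WT QSC pool 1, Snord104 (-1.55 ± 0.22, adjusted p = 0.0288) and Scarna8 (-1.78 ± 0.32, 0.0447) passed, and 231 of all genes did instead of 2. The TSC1 KO pool and WT QSC pool 1 thus had like values for these RNAs: 12.02 and 11.94 for Snord104, 5.72 and 5.57 for Scarna8. A genotype difference and a difference between pools of this kind cannot be told apart with 1 pool.

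In Rptor KO QSC, 39 of 54 members lay above the WT QSC mean, with medians of 0.24 for box C/D and 0.20 for H/ACA. Of all genes before the filter 53.0% lay above it, and of those tested 49.6%. None of the members passed, where 0.122% of all genes did, and 7 had an unadjusted p under 0.05 (11.3% of all genes). Without WT QSC pool 1 the H/ACA median was -0.09, so its direction rests on that pool. The smallest p values were those of U8 (Snord118; 7.61 against 6.73 to 6.88; 0.81 ± 0.24, limma adjusted p = 0.253), Scarna17 (12.63 against 12.06 to 12.22; 0.49 ± 0.17, 0.315), Snora30 (8.51 against 7.33 to 7.60; 1.05 ± 0.38, 0.328) and Snord52 (7.93 against 7.18 to 7.59; 0.60 ± 0.22, 0.338). Snord15a and Snord15b, both within Rps3, were 9.10 and 11.19, the highest of the 12 pools for both. For Snord15b, however, WT QSC pool 3 was all but equal at 11.18. The pool lay above all WT QSC pools for 18 members (36.0%), against 24.9% of all genes, and below all of them for 3 (26.5% of all genes), among them Snora23 at 10.83.

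Rptor KO CSC against Rptor KO QSC had 48 of 54 members lower, with medians of -0.38 for box C/D and -0.36 for H/ACA, against -0.04 for all genes tested, of which 48.9% lay above 0 before the filter. None passed, where 0.258% of all genes did, and 4 had an unadjusted p under 0.05 (5.06% of all genes). Snord35a was 9.46 and 8.51 (-0.95 ± 0.36), Snord52 7.93 and 7.29 (-0.64 ± 0.27), Snord47 9.37 and 8.61 (-0.76 ± 0.33) and Snord118 7.61 and 6.94 (-0.67 ± 0.29), with limma adjusted p values of 0.857 to 0.985. The difference between this response and the WT response was below 0 for 47 of 54 members. Of all genes before the filter 54.0% lay above 0, and of those tested 47.0%. Again none of the members passed (0.0% of all genes). An unadjusted p under 0.05 was found for 6 members (4.44% of all genes). Its smallest adjusted p was 0.92, for Snora23 (1.08 ± 0.36), Snord118 (-1.01 ± 0.34) and Snord35a (-1.23 ± 0.41). Both responses rest on arrays described next, where members differed between arrays of a pool. With the second arrays of WT CSC pool 1 and of both Rptor KO pools left out, Snord47 differed by -0.33 between the Rptor KO pools instead of -0.76.

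In cMet KO QSC no member passed, none had an unadjusted p under 0.05 (1.33% of all genes), and 0.0% of all genes passed. Of the 54 members, 38 lay above the WT QSC mean (46.1% of all genes before the filter, 54.7% of those tested). Of the 50 tested, 10 lay above every WT QSC pool (20.3% of all genes) and 1 below (8.54%). Box C/D RNAs had a median of 0.11 and H/ACA RNAs of 0.23, the latter -0.10 without WT QSC pool 1. Scarna17 (12.51 against 12.06 to 12.22), Snord35a (9.73 against 8.78 to 9.51), Snord85 (8.18 against 7.54 to 7.97) and Snora52 (12.80 against 12.25 to 12.57) had the smallest p, with differences of 0.36 ± 0.17, 0.57 ± 0.29, 0.40 ± 0.21 and 0.35 ± 0.22. In cMet KO CSC against cMet KO QSC no member passed either (0.0% of all genes), none had an unadjusted p under 0.05 (0.537% of all genes), and differences ran from -0.50 to 0.31, 16 of 54 above 0 (40.6% of all genes). The smallest p belonged to Snora41 (6.56 and 6.24; -0.32 ± 0.23), Snord85 (0.31 ± 0.26), Snora52 (-0.30 ± 0.27) and Snord49b (-0.48 ± 0.43). Snord14e, which fell in WT CSC, was 11.26 in QSC and 11.10 in CSC of the cMet KO. Its change in the cMet KO exceeded the WT change by 0.99 ± 0.36 and did not pass (limma adjusted p = 0.402; 0.158% of all genes passed), so a different response was not shown. Of the other members none passed in that comparison, and Snord14e was the 1 with an unadjusted p under 0.05 (9.52% of all genes). In it, 22 of 54 members lay above 0 (51.7% of all genes before the filter, 49.3% of those tested).

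Arrays of the same pool carry the same RNA pool, and the difference between them bears on no condition. For 6 of the 9 pools with 2 arrays, the member medians of the second minus the first array lay between -0.04 and 0.14. Single members in these pools differed by -0.65 to 0.90. In WT CSC pool 1 at 2.5 days, Rptor KO QSC and Rptor KO CSC the member medians were -0.18, -0.24 and -0.33, while those of all genes tested were 0.05, 0.07 and 0.03. The 5 members with the largest mean absolute difference were all box C/D: Snord58b (0.85), Snord47 (0.78), Snord82 (0.64), Snord61 (0.56) and Snord73b (0.52). Snord47 went from 10.25 on the first array to 8.17 on the second in WT CSC pool 1, from 10.10 to 8.64 in Rptor KO QSC and from 9.78 to 7.45 in Rptor KO CSC. In the other 6 pools its arrays differed by at most 0.48. Snord82, within Ncl, went from 11.62 to 9.86, from 12.07 to 11.02 and from 12.13 to 10.56 in the same pools, and Snord73b from 10.19 to 8.82, from 11.22 to 10.10 and from 10.93 to 9.63.

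**Figure D4:**
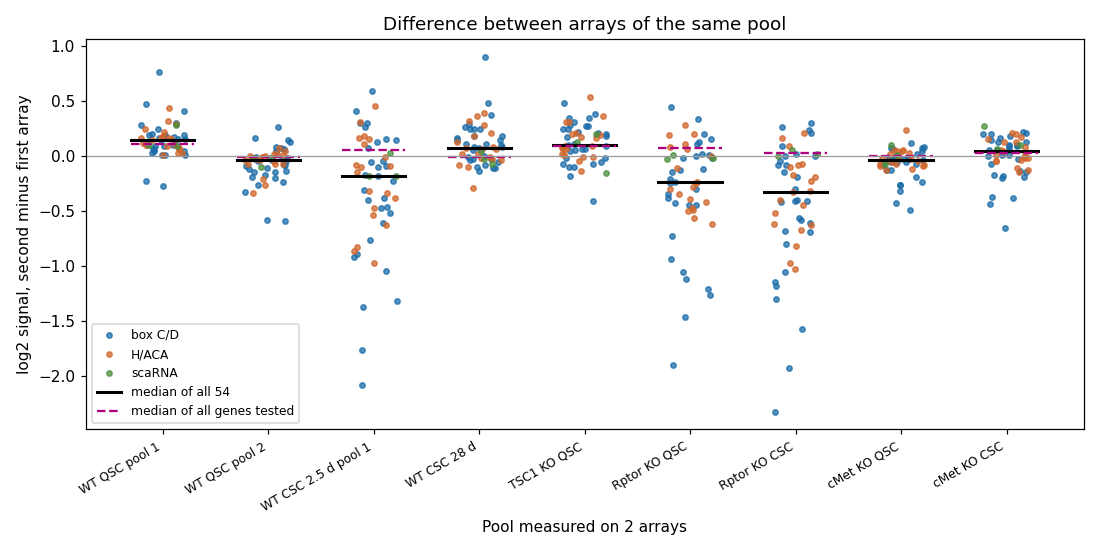
Log2 signal of the second minus the first array for each of the 54 genes (points, coloured by class) in the 9 pools with 2 arrays; the solid bar is the median of the 54 genes and the dashed bar that of all genes tested. Differences down to -2.32 appear in WT CSC 2.5 d pool 1, Rptor KO QSC and Rptor KO CSC, and those in the other 6 pools run from -0.65 to 0.90.

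Some of the members low in whole pools differed little between these arrays, and Snord73b did both. Snora3 differed by -0.08, -0.24 and -0.10 in these 3 pools and Snora73a by -0.10, -0.12 and -0.08, while Snord14e had like values on both arrays of every pool. The median over members of the mean absolute difference was 0.189, against 0.142 for all genes tested. Averaging leaves the low arrays in the pool values: Snord47 in WT CSC pool 1 enters as 9.21, between 10.25 and 8.17. With those 3 second arrays left out, the count of members called stayed at 1 for WT CSC at 2.5 days against WT QSC and at 2 for 28 days against 2.5 days, with the same members. What set the second arrays apart was not tested.

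Signals of holding genes were set beside those of their RNAs. In the 30 pairs with a holding gene on the array (26 genes), the RNA ranged over more than its holding gene in 22, and the median range over 12 pools was 1.30 for the RNAs and 0.74 for the genes. Snora3 ranged over 2.72 and Rpl27a over 0.38, Snord14e over 1.80 and Hspa8 over 0.39, and Snord37 over 1.84 and Eef2, the translocation factor of translation, over 0.23. The reverse held for Snora52 (0.63) and Rplp2 (1.18). Of 25 holding genes tested in WT CSC at 2.5 days against WT QSC, 2 rose and none fell (18.0% of all genes called). Haus6, a spindle gene, rose by 1.02 (limma adjusted p = 0.00245), from 6.91, 6.56 and 6.55 to 7.79, 7.75 and 7.56, and Scarna8 within it differed by 0.49 ± 0.48. Tcp1, a chaperonin subunit, rose by 0.57 (adjusted p = 0.0328), and Snora20 within it differed by -0.36. In the same comparison, RNA and holding gene had the same sign in 16 of 30 pairs.

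**Figure D5:**
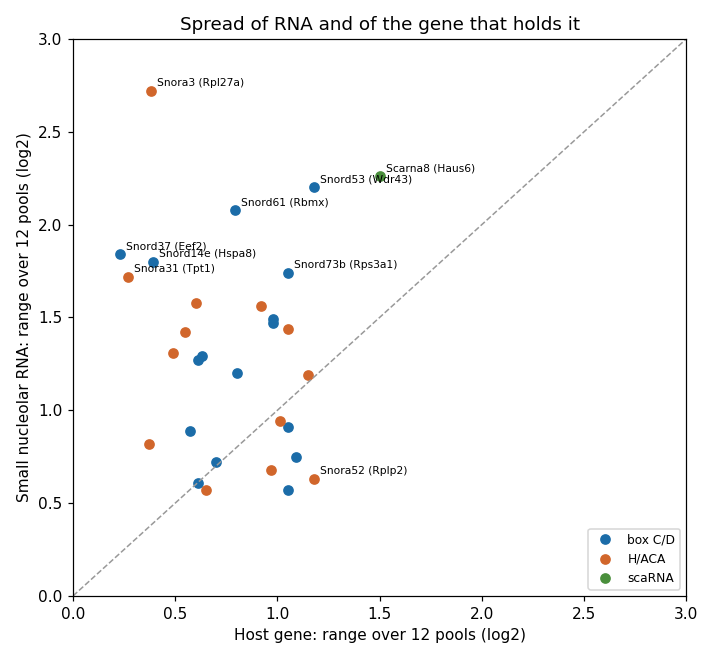
Range of log2 signal over the 12 pools for the small nucleolar RNA (vertical) against that of the gene that holds it (horizontal), for 30 pairs; the dashed line marks equal ranges and colours give the class. Of the 30 points 22 lie above the line, Snora3 within Rpl27a the highest at 2.72 against 0.38.

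Members of one holding gene could differ from each other. Snora16a and Snora44 of Snhg12 were both low in WT QSC pool 1 and TSC1 KO QSC, and so were Snora73a and Snora73b of Snhg3. Of the Rps3a1 RNAs, Snord73b ranged over 1.74 and Snord73a, a dim probeset that was not tested, over 0.57. Of the Rpl23a RNAs, Snord42a was 7.11, 6.67 and 7.81 in WT QSC and 7.50, 7.86 and 7.57 in WT CSC at 2.5 days (overlapping), while Snord42b was 10.19, 10.09 and 9.89 against 9.66, 9.80 and 9.87 (not overlapping, -0.28 ± 0.14, limma adjusted p = 0.198). Of the Ncl RNAs, Snora75 was lowest in TSC1 KO QSC (8.91) and Snord82 in WT CSC pool 1 (10.74), where its arrays differed.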

How the data were processed

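The deposited log2 values are probeset signals of Affymetrix Mouse Gene 1.0 ST arrays, for which the submitters' processing notes name RMA and Affymetrix Expression Console. Per the labels, labelling started from 100 ng of total RNA. Neither a version of that program nor the set of arrays normalized together is given in the sources used here. Of 35556 probesets, 21789 have 1 gene symbol, 1621 several and 12146 none in the platform table. The brightest probeset stood for a gene, and the arrays of a pool were averaged. Genes under the 30th percentile of the mean (log2 6.45) were left out, and 13956 were tested with lmFit and eBayes of limma 3.58.1 (R 4.3.3). The model had 8 group means and 4 residual degrees of freedom, all from the WT QSC and WT CSC 2.5 d pools (moderated 9.01), and p was adjusted by Benjamini-Hochberg over all genes at a threshold of 0.05. The script was tested on simulated data. The number of arrays limits the precision.

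Named genes are, per comparison, members past the threshold or the 4 with the smallest p; the 5 strongest and 5 weakest signals; the 5 largest technical differences; and fixed lists of particle proteins, noncoding hosts and known processing RNAs. Members outside that rule, such as Snora3, were chosen after their values were seen. Members and lists were chosen with earlier results of these data known. Alternatives were another normalization, centring, filters, probeset rules, array choices, a replicate block and leaving out pools.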

Additional observations from a re-analysis of the deposited data

How the results depend on the processing

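The count of members called in WT CSC at 2.5 days against WT QSC (1, Snord14e) was 4 with all arrays and the pool as a random block (Snora33, Snord14e, Snord15a, Snord53), ran from 1 to 5 when a pool was left out (5 without WT QSC pool 3, adding Snord42a), and was 1 under the remaining alternatives apart from the replicate block. With the replicate number as a block it was 2 (Snora23, adjusted p = 0.0318, and Snord14e), and 2796 of all genes passed instead of 2510. The labels do not say what the number marks. Deviations of same-numbered WT pools correlated at 0.319, -0.0331 and -0.0342 over all genes and at 0.472, 0.111 and 0.29 over the members, and over neither did every pool correlate best with its own number. The values reported are those without the block. The adjusted p of Snord14e ran from 4e-06 to 0.0275 and its difference from -1.27 to -0.95 over all 19 alternatives. With the random block, 1 member passed in WT CSC at 28 days (Scarna17) and 1 in Rptor KO QSC (Snord15a). At 28 against 2.5 days the count (2) ran from 1 to 3 when a pool was left out: 1 without WT CSC pool 3, and 3 without WT QSC pool 1 (adding Snora7a), WT QSC pool 3 (Snora20) or WT CSC pool 1 (Snora30). It was 3 with the random block (adding Snord85). In TSC1 KO QSC it ran from 0 to 2 (2 without WT QSC pool 1). The causes of these changes were not tested. No called value changed sign, but class medians of tested members did. Without WT QSC pool 1 the H/ACA median turned from 0.20 to -0.09 in Rptor KO QSC, from 0.23 to -0.10 in cMet KO QSC and from -0.28 to 0.02 for the Rptor response, and the box C/D median from 0.07 to -0.09 for WT CSC at 2.5 days. In all, 8 of 20 class medians changed sign under at least 1 alternative, each by less than the SD of the class level among WT QSC pools.

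Over all genes, calls ran over the alternatives from 1181 to 3606 for WT CSC at 2.5 days (2510), from 436 to 2354 for 28 against 2.5 days (1169), from 0 to 52 for 28 days against WT QSC (0), from 1 to 231 for TSC1 KO QSC (2), from 0 to 235 for Rptor KO QSC (17), from 2 to 112 for Rptor KO CSC (36), from 0 to 49 for the Rptor response (0), from 0 to 357 for the cMet response (22), and from 0 to 2 in both other cMet comparisons (0). Centring arrays on their medians moved the median of all genes in TSC1 KO QSC from 0.04 to 0.14. The random block treats arrays of a pool as partly separate measurements. The alternatives leaving out 3 pools and 3 second arrays were chosen after seeing the data, as was the fit of 6 WT pools without the block. The 6 groups of 1 pool borrow their spread from the WT pools.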

Other observations

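MicroRNA genes, another class of short noncoding RNA on the array (139 tested), also had pool medians that moved by more than those of all genes. Their median deviation from the own mean was -0.15, 0.04 and 0.13 in the WT QSC pools, -0.20, -0.22 and -0.19 in WT CSC at 2.5 days and 0.15 at 28 days. It was -0.36 in TSC1 KO QSC, 0.45 and 0.25 in Rptor KO QSC and CSC, and 0.03 and -0.03 in the cMet KO pools. Small nucleolar RNA genes were likewise low in WT QSC pool 1 (-0.28), WT CSC pool 1 (-0.27) and TSC1 KO QSC (-0.38). They were likewise high in WT QSC pool 3 (0.38), at 28 days (0.22), in Rptor KO QSC (0.23) and in cMet KO QSC (0.12). Their sign was the opposite in WT CSC pools 2 and 3 (0.22 and 0.11), Rptor KO CSC (-0.10), WT QSC pool 2 (-0.05) and cMet KO CSC (0.01).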
